A study of Mus musculus with 2 samples.

Results

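Retnlg-dominant mature neutrophils of the injured liver were examined in 2 droplet single-cell RNA libraries of liver nonparenchymal cells, the cells left in suspension once hepatocytes have been spun down. The cells were selected on measured counts. A barcode had to hold at least 500 UMIs (unique molecular identifiers, each standing for a captured RNA molecule) and at most 20% mitochondrial UMIs. It also needed at least 20 UMIs of S100a8 and S100a9, at least 1 UMI of Cxcr2 and Csf3r, under 10 UMIs of Camp, Ngp and Ltf, and more Retnlg UMIs than Hcar2, Csf1, Hdc and Slc7a11 UMIs together. The rule found 379 cells among 9146 barcodes that met the limits on UMIs and mitochondrial share, out of 10000 barcodes in all. The yap1 library held 181 of them among 4253 such barcodes, and the wild-type library 198 among 4893. The yap1 animals carried floxed yap1 alleles and Lyz2-Cre (yap1 flox/flox lyz2cre), which recombines in cells of the myeloid lineage, neutrophils included, and the other animals are labelled wild type. All animals were C57BL/6 and had received 4 doses of the hepatocyte toxin carbon tetrachloride, which leads to fibrosis, so no uninjured liver stands beside them. Each library is a sample from 3 mice, and with 1 library per genotype no difference between genotypes has a replicate or a test. Ages are not given in the sources used here. All intervals are at 95% and cover counting error only.

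Neutrophils are made in the bone marrow, where granule proteins are produced in waves. Early precursors make the proteases of the primary granules, myelocytes make specific granule proteins such as Camp, Ngp and Ltf, and later cells make gelatinase and the surface receptors of circulating cells. Mature neutrophils hold very large amounts of S100a8 and S100a9, which together form the antimicrobial protein calprotectin, and follow chemokines through Cxcr2. Retnlg encodes resistin-like gamma, a small secreted protein of mouse myeloid cells. Of the genes that Retnlg was set against, Hcar2 encodes a receptor of hydroxycarboxylic acids, Csf1 the macrophage growth factor M-CSF, Hdc the enzyme that makes histamine and Slc7a11 a subunit of the cystine importer. Neutrophils that have entered an inflamed tissue make chemokines, cyclooxygenase and survival proteins.

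Retnlg (ENSMUSG00000022651) lies on the plus strand at chr16:48872621-48874496 of mm10 in the GENCODE annotation. The promoters below are shown because of the comparison with activated neutrophils: Retnlg, whose count the rule used to part the sets, Lcn2, the siderophore-binding lipocalin of specific granules, and Mmp8, the neutrophil collagenase. Each sequence runs 5′ to 3′ on the strand of its gene, from 250 bases before to 50 after the annotated start, and comes from RefSeq on GRCm38.p6, the build also called mm10. Capitals mark the letters TTGCNNAA, read on either strand, a core found in sites of C/EBP factors, which direct granulocyte genes. The windows lie at chr16:48872358-48872657 (plus strand), chr2:32387690-32387989 (minus strand) and chr9:7558179-7558478 (plus strand).
Retnlg: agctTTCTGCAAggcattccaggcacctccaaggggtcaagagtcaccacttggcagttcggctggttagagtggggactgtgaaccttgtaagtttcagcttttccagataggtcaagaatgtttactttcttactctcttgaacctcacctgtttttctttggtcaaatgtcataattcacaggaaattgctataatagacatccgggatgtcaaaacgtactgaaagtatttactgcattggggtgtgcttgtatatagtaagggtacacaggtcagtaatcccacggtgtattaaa
Lcn2: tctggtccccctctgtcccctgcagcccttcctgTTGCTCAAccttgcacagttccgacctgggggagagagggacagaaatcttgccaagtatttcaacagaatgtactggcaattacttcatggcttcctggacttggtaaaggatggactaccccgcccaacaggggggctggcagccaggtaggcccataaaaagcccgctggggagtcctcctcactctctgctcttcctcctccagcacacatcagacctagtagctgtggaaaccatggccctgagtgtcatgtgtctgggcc
Mmp8: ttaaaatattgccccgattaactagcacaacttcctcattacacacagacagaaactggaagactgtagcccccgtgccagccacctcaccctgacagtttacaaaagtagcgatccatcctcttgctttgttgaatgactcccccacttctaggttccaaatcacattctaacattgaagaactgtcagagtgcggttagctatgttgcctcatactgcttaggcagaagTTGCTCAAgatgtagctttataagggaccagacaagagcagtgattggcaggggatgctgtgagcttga
Each of the 3 windows held the motif once. It was present in 10.8% of all 32851 promoters in the table. A match describes these letters and does not show that a factor binds there.

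The label was checked against marker genes. All 5 markers of mature neutrophils were present in both libraries, and 4 of them are also genes of the rule, so their levels describe the choice of cells. S100a8 stood at 87999 CPM (UMIs of a gene per 1000000 UMIs of the cells) in yap1 and 78826 CPM in wild-type cells, and S100a9 at 108931 and 116629 CPM. In the median cell, both together made up 21.2% of all UMIs in the yap1 and 23.4% in the wild-type library. Retnlg reached 16925 CPM in yap1 and 15891 CPM in wild-type cells, against 17.7 and 17.5 CPM in barcodes outside the neutrophil sets. Stfa2l1, a stefin that inhibits cysteine proteases and the only one of the 5 markers that the rule did not use, had a UMI in 56.4% of yap1 and in 47.0% of wild-type Retnlg-dominant cells. In B cells of the same libraries the share was 0.425% and 0.301%. The median B cell held 4476 UMIs in yap1 and 3718 in wild type, and the median Retnlg-dominant cell 3637 and 3505.

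Further neutrophil genes outside the rule were also far above the other barcodes. Mmp9, gelatinase B, stood at 1636 CPM in yap1 Retnlg-dominant cells, against 17.9 CPM in barcodes outside the neutrophil sets, and at 1159 against 4.44 CPM in wild type. Il1r2, the decoy receptor of interleukin-1, gave 1308 against 19.5 CPM in yap1 and 1467 against 20.8 CPM in wild type. Granule genes of immature cells were low, as the rule required. Camp, the cathelicidin precursor, had a UMI in 2.21% of yap1 and 1.52% of wild-type Retnlg-dominant cells, beside 0.849% and 1.51% of B cells, which do not make it. Ngp had a UMI in 11.6% of yap1 and 15.7% of wild-type Retnlg-dominant cells, beside 1.38% and 2.71% of B cells. For Ltf the shares were 2.21% and 2.53%, beside 0.425% and 0.678% of B cells. Lcn2 was not part of the rule and was found in 79.0% and 84.8% of the Retnlg-dominant cells. The basophil and mast cell markers Mcpt8, Cpa3, Fcer1a and Ms4a2 were at 0 in both libraries, as were Prg2 and Epx of eosinophils. Epx was at 0 in barcodes outside the neutrophil sets too. Siglecf, also on the eosinophil list, stood at 20.2 CPM in yap1 cells, against 3.57 CPM in those barcodes. In wild type it stood at 9.09 against 2.63 CPM, with a UMI in 6.08% of yap1 and 3.03% of wild-type cells. A count of 0 allows up to 4.33 CPM in yap1 and 3.89 CPM in wild-type Retnlg-dominant cells.

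Some barcodes carried RNA of other cell types. With at least 5 UMIs over the markers of a monocyte, macrophage, B, T, NK, dendritic, endothelial or mesenchymal class as the limit, 19 of 181 yap1 and 20 of 198 wild-type cells were over it. They held 21.7% and 25.1% of the UMIs of all Retnlg-dominant cells. The 6 macrophage and Kupffer cell markers, all above 0, summed to 771 CPM in yap1 and 915 CPM in wild type, and to 71.9 and 84.9 CPM once those cells were left out. The 6 monocyte markers, also all above 0, summed to 618 and 685 CPM, and to 207 and 253 CPM without them. A single wild-type barcode had 56017 UMIs and 6150 genes, against at most 15889 UMIs in any other wild-type and 17228 UMIs in any yap1 Retnlg-dominant cell. It met the rule with 3 Retnlg UMIs and 0 of the 4 genes set against it. It held 967 UMIs of the primary granule genes Mpo, Elane, Prtn3 and Ctsg and 32 of the cell cycle genes Mki67 and Top2a, and made up 7.27% of the wild-type UMIs analysed. The limit does not cover hepatocyte and erythroid markers. The cell with most of the wild-type UMIs of each held 283 hepatocyte and 794 erythroid UMIs, and without the cells over the limit these markers still summed to 133 and 51.6 CPM in yap1 and 634 and 1393 CPM in wild type. No doublet caller was run, and results are therefore given with and without the cells over the limit. The libraries shared 5 barcodes, of which 0 belonged to these cells.

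The line between Retnlg-dominant and activated neutrophils, which met the same limits but had less Retnlg than the 4 genes, cuts through a continuous range of counts. Retnlg exceeded the sum of Hcar2, Csf1, Hdc and Slc7a11 by 1 or 2 UMIs in 19 yap1 and 18 wild-type cells. It lay 1 or 2 UMIs below that sum in 19 yap1 and 22 wild-type cells, and equalled it in 25 and 12. The median Retnlg-dominant cell had 28 Retnlg UMIs in yap1 (lowest 1, highest 474) and 36 in wild type (lowest 1, highest 379). The 4 genes summed to a median of 10 UMIs in yap1 and 11 UMIs in wild-type Retnlg-dominant cells, against 13 and 13 in activated ones. Retnlg-dominant cells thus carried RNA of these genes too. The limit on S100a8 and S100a9 took in few cells near it: 0 yap1 and 2 wild-type cells had 20 to 39 UMIs. The limit of 1 receptor UMI took in 23 yap1 and 19 wild-type cells with exactly 1, and left out 33 and 32 with 0.

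**Figure D1:**
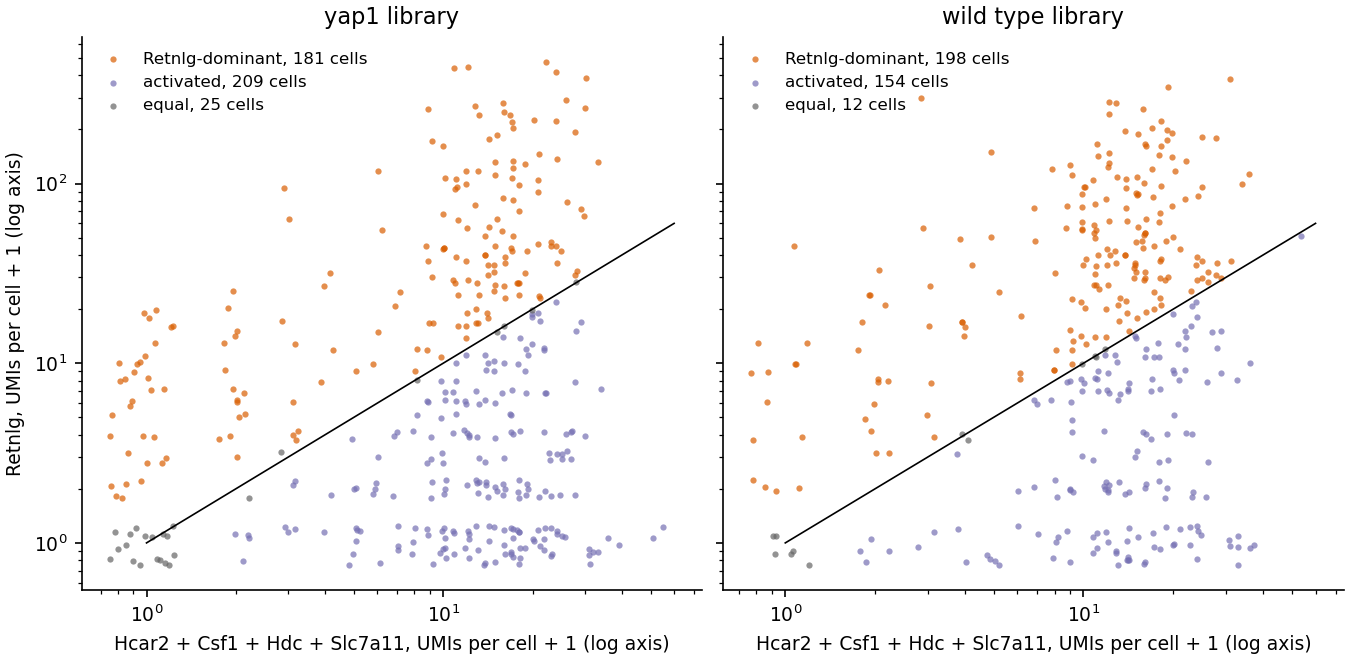
Retnlg UMIs per cell (vertical) against the sum of Hcar2, Csf1, Hdc and Slc7a11 UMIs (horizontal), both plus 1 on log axes, in yap1 (left) and wild-type (right) neutrophils that passed the other limits. Each point is a cell and the line marks equal counts. The 181 yap1 and 198 wild-type Retnlg-dominant cells lie above it with no gap to the 209 and 154 activated cells below it.

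Retnlg-dominant cells made up 4.26% (3.67 to 4.91%) of passing barcodes in yap1 and 4.05% (3.51 to 4.64%) in wild type (exact Clopper-Pearson intervals), and the intervals overlapped. Among neutrophils by marker counts they were 181 of 437 in yap1, or 41.4% (36.8 to 46.2%), and 198 of 412 in wild type, or 48.1% (43.1 to 53.0%). Activated neutrophils were 47.8% (43.1 to 52.6%) of yap1 and 37.4% (32.7 to 42.2%) of wild-type neutrophils. Immature neutrophils, with 10 or more UMIs of Camp, Ngp and Ltf, were 5.03% (3.18 to 7.52%) in yap1 and 11.7% (8.72 to 15.1%) in wild type. The intervals of the activated and immature shares did not overlap between the libraries, while those of the Retnlg-dominant share did. Differences between mice and in cell recovery are not covered by these intervals.

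Retnlg-dominant cells were set against activated neutrophils within each library, which asks what else differs along the counts used to choose them. Since the rule itself parts both sets, these values describe them and carry no test. Of 2334 genes with at least 50 UMIs in each library, 21 (0.900%) were higher past 2-fold in both libraries and 46 (1.97%) lower past 2-fold in both. Taken singly, the yap1 library had 62 genes higher and 271 lower past 2-fold, and the wild-type library 81 and 157. Another 19 genes were past 2-fold in opposite ways in the libraries. The 21 higher genes included Retnlg and S100a8 of the rule, and among the others were Lcn2, Mmp8, Ly6g and Wfdc21. Lcn2 stood at 4877 CPM in Retnlg-dominant and 783 CPM in activated cells of the yap1 library and at 5644 and 1834 CPM in wild type, ratios of 6.23 (5.74 to 6.76) and 3.08 (2.86 to 3.32). Mmp8 gave ratios of 3.93 (3.16 to 4.91) in yap1 and 3.80 (3.09 to 4.69) in wild type. Ly6g, the surface antigen that identifies mouse neutrophils, gave 6.39 (4.17 to 10.1) in yap1 and 4.05 (2.63 to 6.51) in wild type. Wfdc21, a small protein of the whey acidic protein family, gave 6.50 in yap1 and 3.55 in wild type, with a UMI in 87.3% and 89.9% of Retnlg-dominant cells. All 4 were past 2-fold in both libraries without the cells over the limit on other lineages as well.

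Prok2, which encodes the chemokine-like prokineticin 2, stood at 175 CPM in Retnlg-dominant and 21.1 CPM in activated cells of the yap1 library and at 108 and 8.60 CPM in wild type. It was found in 10.5% of yap1 and 12.6% of wild-type Retnlg-dominant cells, so most held no UMI of it. Anxa1, a phospholipid-binding protein that limits neutrophil recruitment, had ratios of 2.95 in yap1 and 2.06 in wild type. Timp2, an inhibitor of metalloproteinases, had 2.30 in yap1 and 2.48 in wild type, and Glrx, a glutaredoxin, had 3.60 in yap1 and 2.35 in wild type. R3hdm4 had 2.54 in yap1 and 2.45 in wild type, and Atxn10 had 2.57 in yap1 and 3.15 in wild type. Stfa1 had 7.88 in yap1 and 9.54 in wild type, but a UMI in 9.94% and 10.1% of cells. A single cell held 41.2% of its yap1 and 23.8% of its wild-type UMIs in Retnlg-dominant cells. Its ratios were 3.71 in yap1 and 10.1 in wild type without the cells over the limit on other lineages. C1qa, C1qb and C1qc, complement genes of macrophages, were among the 21 as well. Without the cells over the limit their ratios were 2.40, 0.649 and 0.856 in yap1 and 0.734, 0.743 and 1.73 in wild type. Of the 21 genes, 17 were past 2-fold in both libraries in either setting.

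The 46 lower genes included Csf1 of the rule, and among the others were chemokine, cyclooxygenase and survival genes. Ptgs2, the inducible cyclooxygenase, stood at 276 CPM in Retnlg-dominant and 1216 CPM in activated cells of the yap1 library and at 282 and 1125 CPM in wild type, ratios of 0.227 (0.193 to 0.265) and 0.25 (0.213 to 0.294). Ccl3, a chemokine that draws monocytes and T cells, had ratios of 0.229 in yap1 and 0.169 in wild type, and its neighbour Ccl4 had 0.299 in yap1 and 0.260 in wild type. Gadd45b, a stress-induced regulator of MAP kinase signalling, had 0.255 in yap1 and 0.245 in wild type. Icam1, an adhesion molecule induced by cytokines, had 0.270 in yap1 and 0.0956 in wild type. Cxcr4, the receptor that retains neutrophils in the marrow, had 0.388 in yap1 and 0.251 in wild type. Clec4n, the lectin receptor Dectin-2, had 0.0978 in yap1 and 0.268 in wild type.

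Bcl2a1a and Bcl2a1b, anti-apoptotic relatives of Bcl2, were also lower, with ratios of 0.195 in yap1 and 0.239 in wild type for the first and 0.235 in yap1 and 0.287 in wild type for the second. At their 3′ ends these paralogs share 66.7% and 86.9% of their 50-base words with other genes, so reads may be split between them. Chil3, a chitinase-like protein, had 0.105 in yap1 and 0.141 in wild type, with a UMI in 2.21% and 3.03% of Retnlg-dominant cells. A single cell held 60.5% of its yap1 and 52.7% of its wild-type UMIs in Retnlg-dominant cells. Without the cells over the limit on other lineages, Chil3 had 0.0685 in yap1 and 0.0547 in wild type. Those ratios rest on only 16 yap1 and 25 wild-type UMIs over both cell sets. S100a4, a calcium-binding protein, had 0.135 in yap1 and 0.225 in wild type, but 3.67 and 0.472 without the cells over the limit on other lineages. Of the 46 genes, 32 were past 2-fold lower in both libraries in either setting.

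Read by gene list, members outside the rule often lay on one side. Of 21 immediate early genes tested, 20 were lower in both libraries, 5 of them past 2-fold (Egr1, Dusp2, Nr4a1, Gadd45b and Socs3), with median log2 ratios of -0.57 in yap1 and -0.82 in wild type, against -0.33 and -0.21 over all genes. Of 15 NF-kB feedback genes, 13 were lower in both, 3 past 2-fold (Nfkbie, Tnfaip3 and Icam1). Of 13 inflammatory cytokine and chemokine genes 10 were, 3 past 2-fold. Of 11 survival and apoptosis genes, 10 were lower in both. Of 11 secondary and tertiary granule genes 8 were higher in both, 3 past 2-fold (Lcn2, Mmp8 and Anxa1), while 3 were lower in both, Chil3 past 2-fold. Of 7 heat shock genes 2 were lower in both and 0 past 2-fold, and of 10 antioxidant genes 5 were lower in both and 0 past 2-fold. Of 14 glycolysis genes 7 were higher and 1 lower in both, and 0 were past 2-fold. Il1b stood at 8244 CPM in Retnlg-dominant and 12581 CPM in activated cells of the yap1 library and at 8087 and 14692 CPM in wild type, log2 ratios of -0.61 and -0.86. Over all genes 1244 of 2334 were lower and 295 higher in both libraries, and the lists are to be read against that.

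The C/EBP core was looked up in promoters of these genes after they had been ranked. Of the 21 genes higher in both libraries, 18 had a promoter in the table, and 7 of these held the motif: Retnlg, Lcn2, Mmp8, Anxa1, Ly6g, Rdh12 and Stfa1. The motif was in 7 of their 20 promoters, in 3 of 50 promoters of genes lower in both, and in 8.79% of 2390 promoters of all genes tested. An NF-kB core, GGGA and CC with any 4 bases between them, read on both strands, was in 7 of the 20, 15 of the 50 and 27.3% of the 2390. Retnlg is among the 21 by the rule, the others were chosen by their counts in the same cells, and no test was made.

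**Figure D2:**
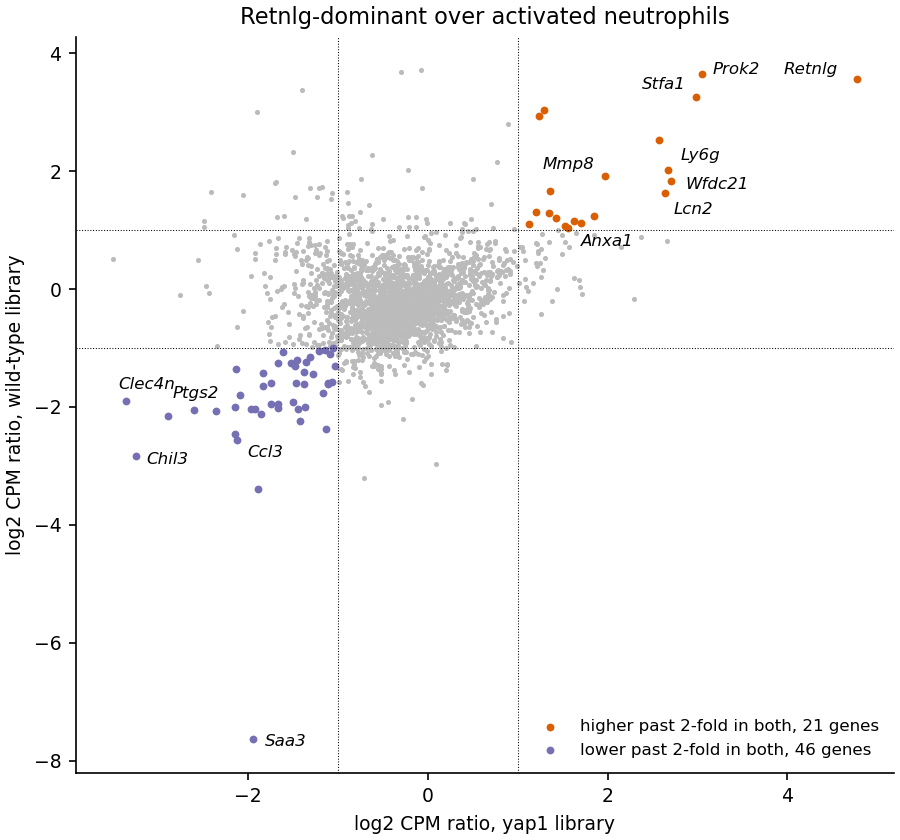
Log2 CPM ratio of Retnlg-dominant over activated neutrophils in the yap1 (horizontal) and wild-type (vertical) library, 1 point per gene with UMIs in every set, with dotted lines at 2-fold. Of the 21 genes higher in both, 20 are drawn at the upper right, since BC100530 had 0 UMIs in wild-type activated cells, and the 46 lower in both lie at the lower left.

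Within the Retnlg-dominant cells, genes picked after their values were seen were traced over the share of Retnlg in its sum with the 4 genes. The share is made of counts the rule used, so the values are a description. Cells were divided by that share into 50 to 75%, 75 to 90% and above 90%, leaving out those over the limit on other lineages. The ranges held 59, 42 and 61 yap1 and 67, 62 and 49 wild-type cells, at median depths of 3453, 3812 and 2006 UMIs in yap1 and 3242, 3498 and 3846 UMIs in wild type. Mmp8 stood at 211, 460.4 and 813 CPM in yap1 and at 508, 1105 and 1892 CPM in wild type. It was higher in each next range in both libraries, and lower in yap1 than in wild type in all 3, with intervals that did not overlap. Lcn2 stood at 4096, 5744 and 6546 CPM in yap1 and at 4424, 6734 and 10026 CPM in wild type, and Ly6g at 65.4, 240.5 and 268 CPM in yap1 and at 147, 198 and 484 CPM in wild type. Wfdc21 stood at 1927, 2480.5 and 3364 CPM in yap1 and at 1713, 2455 and 3068 CPM in wild type. Prok2 stood at 25.2, 109.9 and 479.9 CPM in yap1 and at 52.2, 139.9 and 258 CPM in wild type. These 5 genes were each highest in the cells with the largest Retnlg share.

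Ptgs2, Cxcr4 and Il1b ran the opposite way. Ptgs2 stood at 574, 247 and 106 CPM in yap1 and at 427, 314 and 145 CPM in wild type. Cxcr4 stood at 498, 247 and 162 CPM in yap1 and at 589, 178 and 126 CPM in wild type, and Il1b at 13159, 8472 and 6112 CPM in yap1 and at 11937, 9759 and 6757 CPM in wild type. All 3 were lower in each next range in both libraries. Ccrl2, an atypical receptor that presents chemerin, stood at 1429, 302 and 359 CPM in yap1 and at 1225, 405 and 189 CPM in wild type, highest in the lowest range of both, with no steady order in yap1. The ranges rest on the counts of the same cells, so shallow cells with few UMIs of the 4 genes can fall in the top range, and the part of depth in these orders was not tested.

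**Figure D3:**
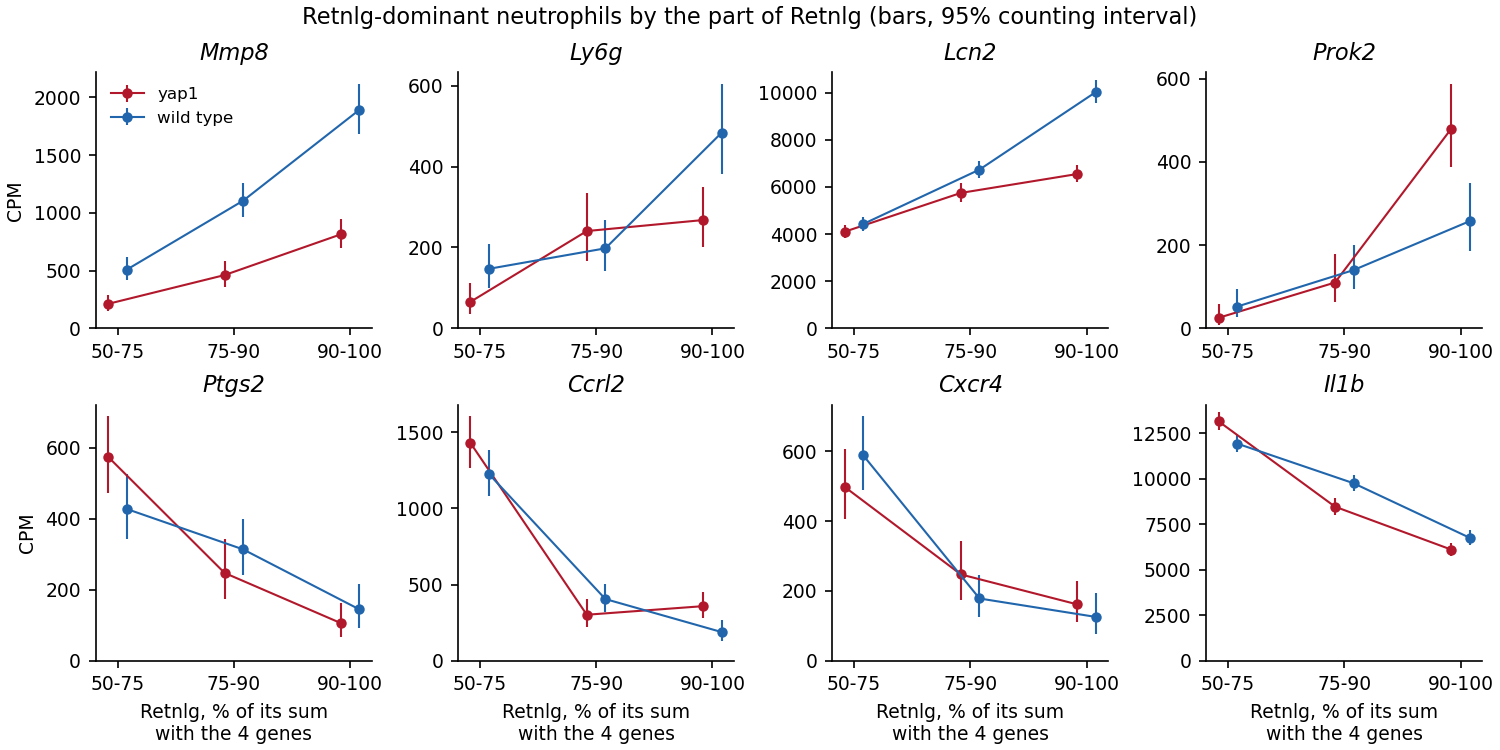
CPM of 8 genes in Retnlg-dominant cells divided by the share of Retnlg in its sum with Hcar2, Csf1, Hdc and Slc7a11 (50 to 75%, 75 to 90%, above 90%), in the yap1 and wild-type library, with 95% counting intervals and without cells over the limit on other lineages. Mmp8, Lcn2 and Prok2 are higher toward the right in both libraries, while Ptgs2, Cxcr4 and Il1b are lower, and Mmp8 is lower in yap1 in all 3 ranges.

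Against immature neutrophils of the same library, Retnlg-dominant cells differed in far more genes. Of 1739 genes tested, 504 (29.0%) were higher and 86 (4.95%) lower past 2-fold in both libraries. Without the cells over the limit on other lineages, 451 of 1063 genes tested were higher and 39 lower. Only 332 higher and 14 lower genes were past 2-fold with and without those cells. Leaving them out kept just 1 yap1 and 8 wild-type immature cells. The immature set held 22 yap1 and 48 wild-type cells at median depths of 13536 and 10487 UMIs, and the rule fixed the direction of Camp, Ngp and Ltf. Besides these, Chil3, Cebpe, Cd177 and Serpinb1a were among the lower genes. Chil3 stood at 54.9 CPM in Retnlg-dominant and 3222 CPM in immature cells of the yap1 library and at 71.4 and 5988 CPM in wild type. Cebpe, the factor required for specific granule genes, had ratios of 0.0807 in yap1 and 0.0275 in wild type. Cd177, a surface protein also stored in specific granules, had 0.0710 in yap1 and 0.0718 in wild type, and Serpinb1a, an inhibitor of neutrophil proteases, had 0.0238 in yap1 and 0.0575 in wild type. Lcn2, higher than in activated cells, was lower than in immature cells, with log2 ratios of -2.39 in yap1 and -2.15 in wild type. Ly6g likewise gave -2.42 in yap1 and -2.06 in wild type. Retnlg itself parted these sets little, with log2 ratios of -0.13 in yap1 and 0.51 in wild type.

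Among the 504 higher genes were Wfdc17, Il1b, Nlrp3 and Stfa2l1. Wfdc17, a secreted protein of macrophages and neutrophils, stood at 7289.6 CPM in Retnlg-dominant and 20.9 CPM in immature cells of the yap1 library and at 7705 and 155 CPM in wild type. Il1b stood at 8244 CPM in Retnlg-dominant and 164 CPM in immature cells of the yap1 library and at 8087 and 341 CPM in wild type. Nlrp3, the inflammasome sensor, gave log2 ratios of 6.17 in yap1 and 4.66 in wild type, and Stfa2l1 gave 3.68 in yap1 and 3.77 in wild type. Fgl2, a fibrinogen-like protein, had ratios of 56.8 (15.6 to 472) and 84.7 (23.2 to 703) on 2 yap1 and 2 wild-type UMIs in immature cells. Of 20 immediate early genes 18 were past 2-fold higher in both, of 11 inflammatory cytokine and chemokine genes outside the rule 10, of 10 NF-kB feedback genes 8, and of 16 interferon-stimulated genes 12. Of 10 chemoattractant receptors outside the rule 6 were past 2-fold higher and 1, Ltb4r1, lower, and of 12 Fc and complement receptor genes 3 were higher. Of 12 secondary and tertiary granule genes outside the rule 7 were past 2-fold lower in both: Lcn2, Cd177, Chil3, Mmp8, Padi4, Anxa1 and Lyz2. Slpi of that list was past 2-fold higher in both, as was Ctsc of the primary granule list. These counts stand against the 29.0% and 4.95% of all genes. The levels are shares of UMIs, so genes that take up much of an immature cell's RNA lower the share of the others.

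Between genotypes, yap1 Retnlg-dominant cells were set against wild-type ones, which asks how these neutrophils differ with myeloid recombination of yap1. Yap1 itself had 0 UMIs in the Retnlg-dominant cells of both libraries, as had its paralog Wwtr1 and the dopamine receptor gene Drd2, so the targeted gene gives no check of the labels here. Of 2524 genes with at least 50 UMIs, 194 (7.69%) were above 1.5-fold and 312 (12.4%) below it in yap1. Without the cells over the limit on other lineages 1862 genes were tested, of which 168 (9.02%) were above and 107 (5.75%) below. In both settings 88 genes were above and 66 below. A single cell carried at least 50% of a library's UMIs for 76 of the 312 lower and 7 of the 194 higher genes. The side with more genes differed with and without the cells over the limit, but 1862 in place of 2524 genes could be tested without them. Without the 1 wild-type barcode of 56017 UMIs alone, 144 genes were below 1.5-fold. Which part of the change came from the smaller number of genes tested was not tested.

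Among genes lower in yap1, Ccl4 (chr11:83662584-83664683) stood at 229.6 CPM in yap1 and 755 CPM in wild type, a ratio of 0.304 (0.253 to 0.363), and of 0.325 without the cells over the limit. The difference was largest in the cells with the smallest Retnlg share. Over the 3 ranges Ccl4 stood at 322, 186 and 197 CPM in yap1 and at 1685, 275 and 88.0 CPM in wild type, and in the top range it was higher in yap1. The ratio was 0.264 (0.240 to 0.289) in activated neutrophils and 0.933 in B cells, where Ccl4 stood at 118 CPM in yap1 and 126 CPM in wild type. Mmp8 (chr9:7558456-7568485) stood at 485 CPM in yap1 and 881 CPM in wild type, a ratio of 0.550 (0.481 to 0.628), and of 0.451 without those cells. In activated neutrophils the Mmp8 ratio was 0.532, and in immature ones 1.17 (1.06 to 1.30). Mrgpra2a, a Mas-related receptor gene, had 0.354 (0.245 to 0.503), and 0.242 in activated neutrophils, but shares 78.0% of its 3′ 50-base words with related genes.

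Thbs1, the matrix protein thrombospondin 1, had a ratio of 0.419 (0.315 to 0.553) in Retnlg-dominant cells, of 0.577 in activated neutrophils and of 1.04 in B cells. Hmox1, the haem-degrading enzyme, had 0.511 (0.372 to 0.695) in Retnlg-dominant and 2.92 (2.30 to 3.76) in activated neutrophils. Ngp had 0.463 (0.315 to 0.669), within the few UMIs the rule allowed. Lyz2, the locus that carries Cre, had 0.907 (0.851 to 0.966) and 0.736 without the cells over the limit, beside 0.649 in B cells and 0.914 in activated neutrophils. BC100530 of the stefin cluster had 0.242 (0.186 to 0.310), with 56.9% of its wild-type UMIs in 1 cell and 3′ sequence shared with Stfa1. Stfa2l1 of the same family was higher in yap1, at 1779 CPM in yap1 and 1276 CPM in wild type, a ratio of 1.39 (1.28 to 1.52), and of 0.753 in activated neutrophils.

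Genes higher in yap1 included a regulator of NF-kB and a transglutaminase. Nfkbid (chr7:30421732-30428746), an atypical inhibitor of NF-kB, stood at 332 CPM in yap1 and 164 CPM in wild type, a ratio of 2.03 (1.63 to 2.54), with a UMI in 52.5% and 36.9% of cells. Over the 3 Retnlg ranges it stood at 503, 323 and 248 CPM in yap1 and at 237, 178 and 107 CPM in wild type, higher in yap1 in each. In activated neutrophils the ratio was 0.732 (0.628 to 0.855), on the other side of 1, and in B cells 1.27. Tgm2 (chr2:158116402-158146436), the transglutaminase, stood at 198 CPM in yap1 and 88.3 CPM in wild type, a ratio of 2.24 (1.66 to 3.04), beside 1.47 (1.21 to 1.80) in activated neutrophils and 0.929 in B cells. Steap4, a metalloreductase, had 1.79 (1.39 to 2.30), but 0.639 (0.519 to 0.786) in activated neutrophils. Ltb, the lymphotoxin beta gene, had 1.77 (1.43 to 2.22), beside 0.850 in activated neutrophils and 1.29 in B cells. Lst1, a leukocyte membrane protein, stood at 878 CPM in yap1 and 495 CPM in wild type, a ratio of 1.77 (1.56 to 2.02), beside 1.34 in activated neutrophils and 1.29 in B cells. Without the cells over the limit the ratios of Nfkbid, Tgm2, Steap4, Ltb and Lst1 were 2.01, 2.19, 1.80, 1.69 and 1.73.

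Several differences were of similar size in B cells. Wdr89 had a ratio of 0.110 in Retnlg-dominant cells and of 0.111 in B cells. Eno1, a glycolytic enzyme, had 1.63 in Retnlg-dominant cells and 1.65 in B cells, with 39.8% of its 3′ words shared with other genes. Egr1, an immediate early factor, had 1.65 and 1.79. Whether such genes differ by genotype or by library cannot be told apart.

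**Figure D4:**
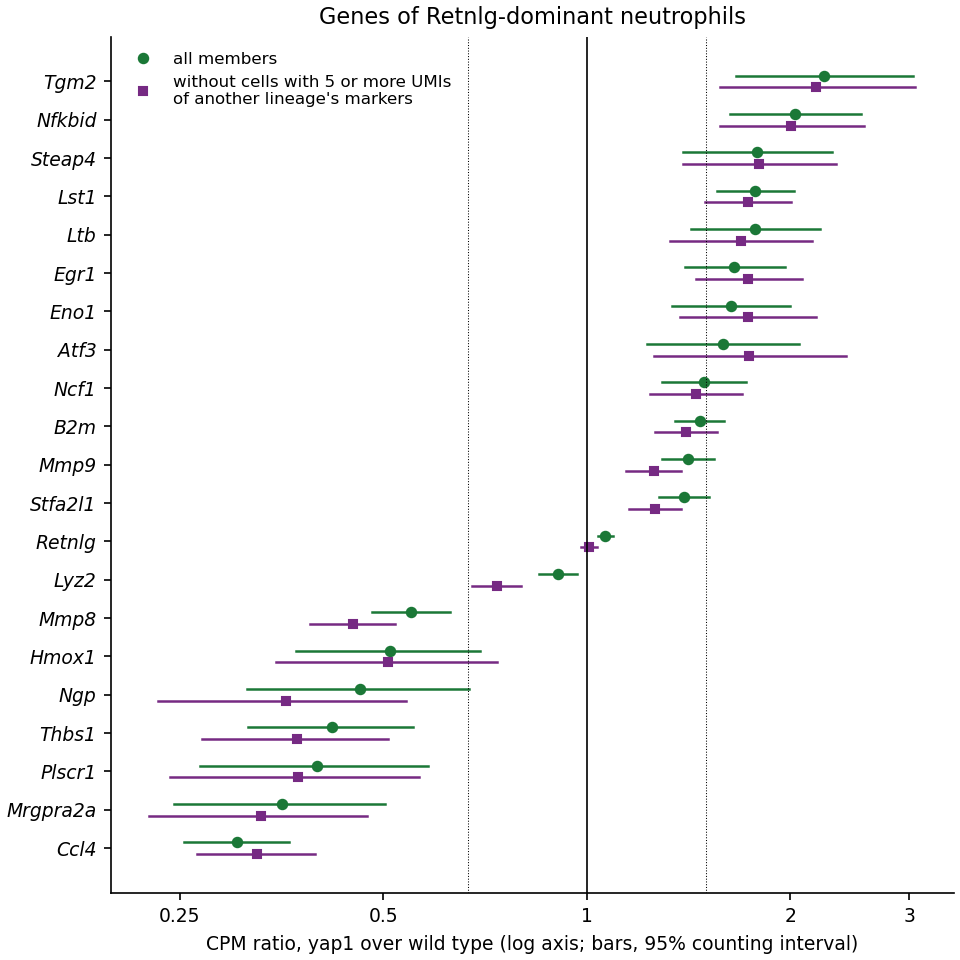
CPM ratio of yap1 over wild type in Retnlg-dominant neutrophils for 21 genes on a log axis, for all cells and without cells over the limit on other lineages, with 95% counting intervals. The solid line marks equal levels and the dotted lines 1.5-fold. Ccl4 lies at 0.304, Tgm2 at 2.24 and Retnlg at 1.07.

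By gene list, 3 of 24 had a median past 1.5-fold. All 7 primary granule genes with at least 20 UMIs were lower in yap1. Elane, neutrophil elastase, stood at 0 CPM in yap1 and 384 CPM in wild type, at least 88.7-fold lower with 3 counts set in place of 0, but 99.5% of the wild-type UMIs of Elane, Prtn3, Ctsg and Mpo came from the 1 barcode with 56017 UMIs. Without it the list's median log2 ratio was -0.28, against -5.88 with it. All 6 MHC class II genes with at least 20 UMIs, which present antigen on B cells, macrophages and dendritic cells, were higher in yap1, with a median of 1.29. H2-Eb1 stood at 996 CPM in yap1 and 258 CPM in wild type, with 25.1% of yap1 and 36.7% of wild-type UMIs in 1 cell, and a UMI in 12.7% and 11.6% of cells. Without the cells over the limit 4 of 4 were higher, with a median of 2.77. In cells with more than 2 Retnlg UMIs for each UMI of the 4 genes, and at least 5, the median was -0.41, on the other side of 0. Once the cells over the limit were left out, the B cell markers summed to 12.9 CPM in yap1 and 12.1 CPM in wild type, the dendritic cell markers to 7.38 and 0 CPM, and the macrophage markers to 71.9 and 84.9 CPM. Over all Retnlg-dominant cells the dendritic markers summed to 10.1 CPM in yap1 and 33.8 CPM in wild type. The part of other cells' RNA in the class II difference was not tested further. All 14 hepatocyte genes with at least 20 UMIs were lower in yap1, with a median of -1.37, and Alb, albumin, stood at 40.4 CPM in yap1 and 327 CPM in wild type with 84.9% of its wild-type UMIs in 1 cell.

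The other 21 lists had medians between -0.29 (heat shock) and 0.38 (MHC class I), against -0.02 over all genes. Of 12 MHC class I pathway genes 11 were higher in yap1, and 11 of 11 without the cells over the limit. B2m, the shared light chain of class I molecules, stood at 1884 CPM in yap1 and 1281 CPM in wild type, a ratio of 1.47 (1.35 to 1.60), beside 1.36 in activated neutrophils and 1.13 in B cells. H2-K1, a class I heavy chain, had 1.37 (1.23 to 1.54). Of the MHC class I genes with at least 50 UMIs, 2 of 11, Tap1 and H2-Q4, were above 1.5-fold, a share to be read against 7.69% of all genes. Of 16 inflammatory cytokine and chemokine genes with at least 50 UMIs, 5 were below and 1 above 1.5-fold, against 12.4% and 7.69% of all genes. Without the cells over the limit 3 of 12 were below and 0 above, against 5.75% and 9.02%. Il1b had 1.02 (0.983 to 1.06) and Cxcl2 1.0031. Of 13 secondary and tertiary granule genes 2 were below 1.5-fold, Mmp8 and Ngp of the rule, a share near the 12.4% of all genes. With the cells over the limit left out, 2 of 12 were below and 0 above, against 5.75% and 9.02% of all genes. Of the rule's own genes, Csf3r, the receptor of G-CSF, stood at 1735 CPM in yap1 and 1381 CPM in wild type, a ratio of 1.26 (1.16 to 1.37), Cxcr2 had 1.17 (1.05 to 1.31) and Slc7a11 had 0.772 (0.667 to 0.894), as a description of the cells chosen. Of the YAP/TEAD pathway list 10 of 24 genes had at least 20 UMIs, with a median of 0.27, and of -0.09 over the 6 left without the cells over the limit.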

How the data were processed

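RNA of liver nonparenchymal cells was captured in droplets in 2 libraries, 1 per genotype. The authors deposited whole-number counts per gene and barcode, taken here as UMIs, on mm10, and the submitters' processing notes name Bowtie 0.12.2 and Seurat without their roles. The yap1 library holds 34234353 UMIs and the wild-type library 30386545, over 27998 gene IDs. Counts were summed over the chosen cells and divided by their total (CPM). Ratios carry exact conditional binomial intervals, CPM exact Poisson and shares exact Clopper-Pearson intervals, all for counting error only. With 1 library per genotype there is no test. The ratio and its interval were run on simulated Poisson counts, the model that the interval assumes. Spread between cells was not simulated, so that run cannot show whether the intervals cover it. A gene was called past 1.5-fold with at least 50 UMIs over both libraries, or past 2-fold the same way in both libraries with at least 50 UMIs in each. List medians used members with at least 20 UMIs. Cell members, gene lists and limits were chosen with earlier results of these data known. Named genes were those of the rule and markers, up to 4 per list with the largest ratio, the 12 highest and 12 lowest genes by the bound nearest to 1, and the 10 highest and lowest of each comparison between cell sets. The ranking was also run without the cells over the limit on other lineages. Timp2, Glrx, Icam1, Bcl2a1b, Nlrp3, Cxcl2, Il1b and the genes traced over the Retnlg ranges were chosen after their values were seen. Alternatives changed the cell filter, marker limits, Retnlg limit, doublets, scaling, weighting, depth and gene minimum. Trac, Clec7a and Cebpd were not analysed here. Scipy 1.17.1 gave the intervals, under Python 3.11.15 with pandas 2.3.3 and numpy 2.4.6, and matplotlib 3.10.9 the figures.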

Additional observations from a re-analysis of the deposited data

Results flagged for a closer look

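In 7 of the named genes the Retnlg-dominant over activated log2 ratio was past 2-fold in opposite ways in the libraries, which was not tested. Over all 2334 genes set against activated neutrophils there were 19 such genes. Alb had -1.90 in yap1 and 3.001 in wild type, with 84.9% of its wild-type UMIs in Retnlg-dominant cells in 1 cell. Atp5g1 had -1.69 in yap1 and 1.82 in wild type, with 61.0% of its wild-type UMIs in Retnlg-dominant cells in 1 cell. Cycs had -1.70 in yap1 and 1.81 in wild type, with 69.1% of its wild-type UMIs in Retnlg-dominant cells in 1 cell. Prdx1 had -1.68 in yap1 and 1.22 in wild type, with 39.9% of its wild-type UMIs in Retnlg-dominant cells in 1 cell. Ptma had -1.07 in yap1 and 1.52 in wild type, with 59.3% of its wild-type UMIs in Retnlg-dominant cells in 1 cell. Ran had -1.23 in yap1 and 1.56 in wild type, with 80.3% of its wild-type UMIs in Retnlg-dominant cells in 1 cell. Ttr had -1.21 in yap1 and 1.72 in wild type, with 53.1% of its wild-type UMIs in Retnlg-dominant cells in 1 cell. Alb and Ttr encode serum proteins of hepatocytes, Cycs and Atp5g1 mitochondrial proteins, and Ran and Ptma nuclear proteins abundant in dividing cells. In each gene but Prdx1, a single wild-type cell held most of the UMIs behind the positive value.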

How the results depend on the processing

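The 2 shares of Retnlg-dominant cells moved within their intervals under the 7 alternatives run for each. The count of genes below 1.5-fold in yap1, 312, was 107 without cells of other lineages, 144 without the wild-type cell with primary granule UMIs (an alternative chosen after seeing the data), 134 with the stricter Retnlg limit (more than 2 Retnlg UMIs for each UMI of the 4 genes, and at least 5), 40 with cells thinned to 1000 UMIs, 56 with at least 200 UMIs per gene and 3733 with at least 1 UMI. The count above 1.5-fold, 194, was 65 when thinned, 28 with at least 200 UMIs and 2783 with at least 1 UMI. The number of lists past 1.5-fold, 3, was 1 with the stricter Retnlg limit. Against activated neutrophils, the 46 lower genes were 76 without cells of other lineages, 72 with at least 10 S100a8 and S100a9 UMIs, 126 with the stricter Retnlg limit, 25 when thinned and 21 with at least 200 UMIs, and the 21 higher genes were 33 with the stricter limit and 11 when thinned. Against immature neutrophils, the 86 lower genes were 39 without cells of other lineages, 15 when thinned and 28 with at least 200 UMIs, and the 504 higher were 142 and 196 under the last 2. Thinning and the minimum of 200 UMIs leave fewer genes to test, and the minimum of 1 UMI more. Leaving out cells of other lineages left 1 yap1 and 8 wild-type immature cells, since 300 of 303 and 437 of 483 of their monocyte marker UMIs were Ly6c2.

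Of the yap1 over wild-type CPM ratios, some crossed 1. Without cells of other lineages these were Ccl2 5.85, Ccr2 0.532, Fcgr2b 0.443, Hspa1a 0.684, Hspa1b 0.532, Hspe1 1.06, Irf8 1.22, Ppia 1.19, Prtn3 2.13, Ptma 1.21 and Ran 3.19. Several rest on few UMIs in yap1 and wild type: Ccl2 on 11 and 2, Ccr2 on 3 and 6, Hspe1 on 6 and 6. Irf8 had 8 and 7 and Prtn3 8 and 4, while Ppia had 56 and 50 and Ptma 82 and 72. With the stricter Retnlg limit they were Apoe 0.292, Ccl2 1.51, Ccr2 0.225, Cd74 0.867, Ctss 0.445, Fcgr1 0.236, H2-Aa 0.960, H2-Ab1 0.656 and Prtn3 5.50, and the MHC class II median was -0.41 on the log2 scale. With cells weighted equally they were Apoe 0.889 and Pycard 1.21. When thinned they were Mpo 1.19, Pgk1 1.37, Ran 7.17 and Zbp1 1.19, and the primary granule median was 0.99. The thinned ratios rest on few UMIs, in that order 1, 8, 6 and 7 in yap1 and 1, 7, 1 and 7 in wild type. Without the wild-type cell Prtn3 was 1.65. The causes were not tested. Over all named genes and alternatives, 1170 ratios stayed within their interval, 179 moved outside it on the same side of 1 and 27 crossed 1. No paired analysis was possible because each genotype has 1 library. Genes under about 50 UMIs cannot be ranked at this depth.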
